A study of Mus musculus with 8 samples.

Results

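The genes described here are 50 members of the DNA replication machinery and its nucleotide supply, out of 40840 genes in the deposited expression tables. They were taken by name from a list made with earlier results of these data known, and fell into 8 role groups, namely origin licensing, the MCM helicase, helicase activation, primase and polymerases, the sliding clamp with its loader and lagging strand factors, nucleotide supply, chromatin copying, and the checkpoint and repair of forks. RNA was sequenced from pMF-HSCs, primary hepatic stellate cells of the mouse in their myofibroblastic state. Such cells store vitamin A beside the liver sinusoids and, once cultured, become collagen-secreting myofibroblasts. All cells came from wild-type male C57BL/6J mice aged 15 to 18 weeks, were sorted by their retinol fluorescence, and were grown for 7 days in medium with 5% fetal bovine serum, which activates them on plastic and not in an injured liver. The control group (n = 4) received the vehicle DMSO, and the OGTi group (n = 4) was treated for 24 h with OSMI-1 at 50 µM. OSMI-1 is a small molecule inhibitor of O-GlcNAc transferase (OGT), the enzyme that attaches the sugar O-GlcNAc to proteins. Treated and control cultures with the same replicate number came from the same of 4 independent experiments and were compared as pairs. The comparison asked which of these genes differed in transcript level after inhibition of OGT.

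Replication begins at origins, where the origin recognition complex, CDC6 and CDT1 load the ring-shaped MCM helicase before S phase. The kinase CDC7 and the factors MCM10, CDC45 and GINS then turn the loaded rings into moving forks, which primase and the polymerases alpha, delta and epsilon copy with the help of the clamp PCNA. Ribonucleotide reductase, thymidylate synthase and thymidine kinase provide the deoxynucleotides, and many of these genes are transcribed in late G1 and S phase under E2F factors, so that their transcripts are scarce in resting cells such as quiescent stellate cells.

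The 8 libraries held 30068876 to 37372420 expected counts, and each of the 50 members was detected in every library. Scaled counts are expected counts divided by the library size after TMM scaling, and serve to compare one gene between libraries. TPM, which is also scaled by transcript length, serves to compare genes with each other. Genes were called by edgeR's quasi-likelihood test with the replicate as a block, at an adjusted p of at most 0.05 over all 19963 genes tested. OGTi replicate 4 stood apart in that 23746 genes had a count there, against 19035 to 20293 in the other libraries, and without replicate 4 the median log2 fold change of the members was -1.39. In bulk RNA, fewer cells of a type and less RNA per cell cannot be told apart.

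Promoter sequence is shown first for 6 members that all carry the same kind of E2F-binding letters. Of these, 4 fell in OGTi (Mcm5, Mcm6, Uhrf1 and Cdc6), while Orc1 and Gins3 did not pass the test. Orc1 was close to the threshold (log2 fold change -1.19, edgeR adjusted p 0.0505) and lower in all 4 pairs. Gins3 had -0.52 (edgeR adjusted p 0.209). Each line gives 100 bases that lie upstream of a start site of the gene, read in its direction of transcription, from RefSeq on build GRCm38.p6. Capitals mark matches to the letters TTTCCCGC, TTTGGCGC, TTTCGCGC or TTTGCCGC, searched on both strands and allowed to overlap.
Mcm5 (chr8:75109312-75109411, plus strand): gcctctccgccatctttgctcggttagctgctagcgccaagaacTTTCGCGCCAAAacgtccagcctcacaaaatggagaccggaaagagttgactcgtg
Mcm6 (chr1:128359731-128359830, minus strand): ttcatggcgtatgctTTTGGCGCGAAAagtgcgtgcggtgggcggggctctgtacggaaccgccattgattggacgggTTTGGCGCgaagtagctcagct
Uhrf1 (chr17:56304082-56304181, plus strand): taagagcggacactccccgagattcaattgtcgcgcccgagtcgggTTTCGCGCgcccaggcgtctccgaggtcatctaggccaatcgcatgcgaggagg
Cdc6 (chr11:98907967-98908066, plus strand): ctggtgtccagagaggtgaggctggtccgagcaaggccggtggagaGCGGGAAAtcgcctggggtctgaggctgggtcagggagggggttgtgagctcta
Orc1 (chr4:108579354-108579453, plus strand): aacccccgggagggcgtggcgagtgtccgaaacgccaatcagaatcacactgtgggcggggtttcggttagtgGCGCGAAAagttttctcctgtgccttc
Gins3 (chr8:95633459-95633558, plus strand): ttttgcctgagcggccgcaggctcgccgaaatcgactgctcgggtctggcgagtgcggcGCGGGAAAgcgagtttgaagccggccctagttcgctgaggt
In Mcm5 the capitals are 2 overlapping matches on opposite strands, and Mcm6 holds 3 matches, of which 2 overlap.

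Promoter windows, of 250 bases before and 50 bases after each start site, were found for 41 of the 50 members. No entry was matched for Gmnn, Mcm4, Gins1, Gins2, Gins4, Prim2, Pole, Rfc2 and Exo1. The E2F letters occurred in 19 of the 41 (46.3%), against 3.92% of 14908 tested genes with a window and 2.26% of all 32851 windows. They occurred in 14 of the 30 matched members that fell in OGTi and in 5 of the 11 that did not pass. Those 5 were Orc1, Brca2, Msh6, Gins3 and Cdt1, with log2 fold changes of -1.19, -1.11, -0.98, -0.52 and 0.33. Not passing thus includes members with a lower estimate. CCAAT occurred in 24 of the 41 members (58.5%, against 42% of tested genes), the GC box letters GGGCGG in 30 (73.2%, against 57.6%), and TTTGAA, the core of the cell cycle homology element of mitotic genes, in 6 (14.6%, against 16.3%), each on both strands. A match describes the letters in the window and not a bound site.

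OGTi lowered 36 of the 50 members and raised 0, while 14 did not pass the test. At an unadjusted p under 0.05, 0 members were higher in edgeR, and likewise 0 in DESeq2 and in limma on log2(TPM + 1). Among all genes tested, 10.2% were called lower and 8.13% were called higher. The median log2 fold change of the members was -1.50, against 0.01 for all genes, and 48 members had a value below 0. The 36 that fell were 1.86 to 11.8-fold lower, with a median of 3.34-fold, and 33 of them were at least 2-fold lower. In 26 members every OGTi library was below every control library, which was the case for 12.0% of all genes, and 43 were lower in all 4 pairs, against 21.5% of all genes. The medians of the 4 pairs were -1.58, -1.26, -1.28 and -1.54.

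The MCM helicase and the nucleotide supply genes fell in full, with 6 of 6 and 5 of 5. Chromatin copying followed with 5 of 6, the clamp, loader and lagging strand group with 6 of 8, primase and polymerases with 5 of 7, helicase activation with 4 of 7, checkpoint and repair with 3 of 6, and origin licensing with 2 of 5. The summed TPM of all members was 1613.8, 1715.5, 1056.5 and 935.9 in control libraries 1 to 4, and 649.1, 820.1, 504.8 and 405.1 in OGTi libraries 1 to 4. Every OGTi library was thus below every control library. Of all counts, the members took 0.166% ± 0.0544 in control libraries and 0.0681% ± 0.0241 in OGTi libraries (SD, n = 4). The control libraries differed among themselves. Replicates 1 and 2 were both above replicates 3 and 4 in 47 of the 50 members in control, and in 30 of 50 in OGTi. The fold changes are therefore given within pairs.

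**Figure D1:**
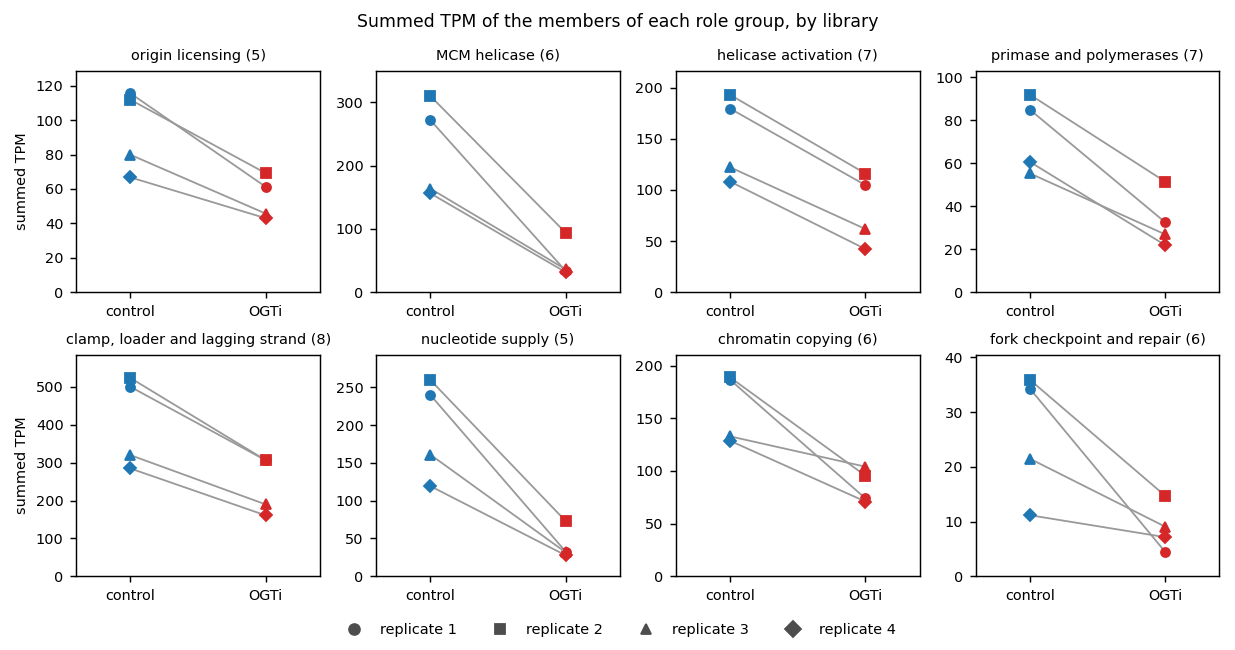
Summed TPM of the members of each role group (vertical axis, from 0) in control and OGTi cultures. Each point is a library, grey lines join libraries with the same replicate number, and the number of genes follows the group name. All 4 lines descend in each of the 8 panels, and the MCM helicase sum goes from between 156.49 and 310.43 TPM in control to between 31.66 and 94.09 TPM in OGTi. Sums are weighted to abundant members, some of which were not called. Orc6 in origin licensing had 51.0 TPM in control and 36.1 TPM in OGTi, with a log2 fold change of -0.17 in edgeR.

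**Figure D2:**
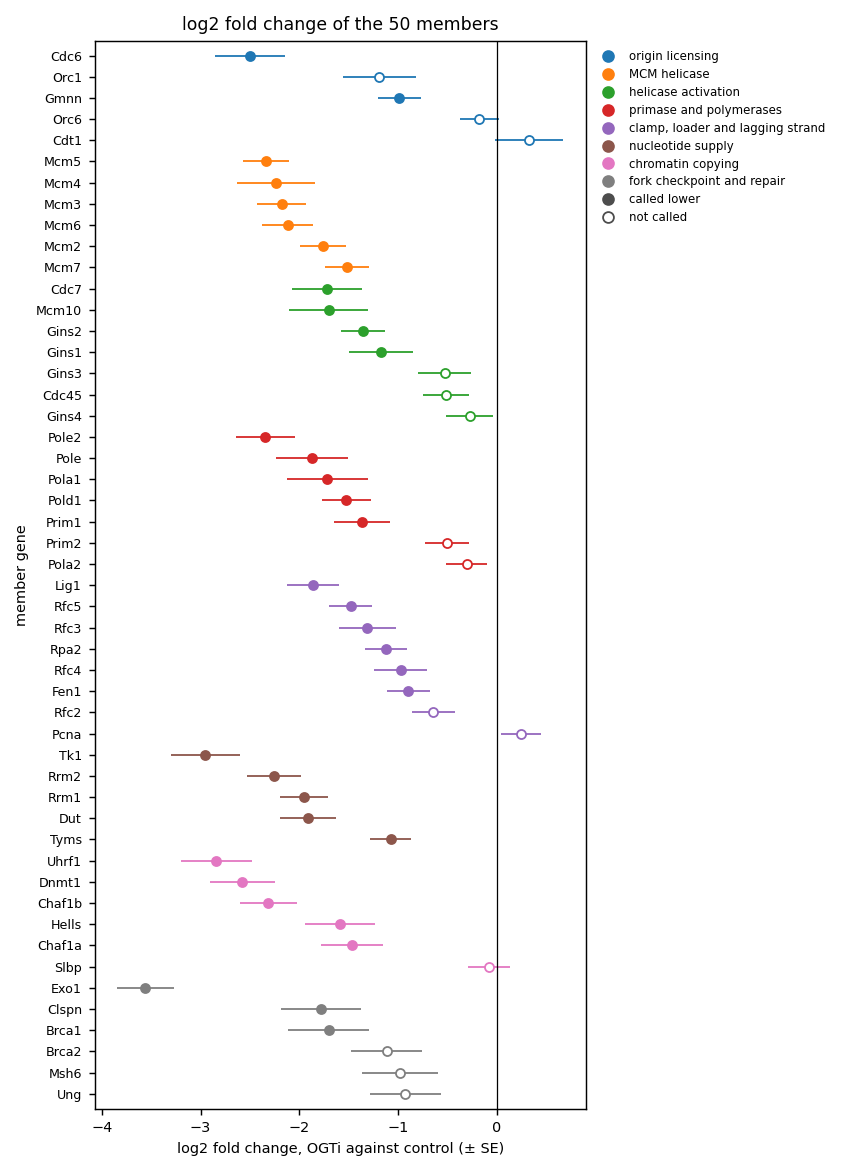
The log2 fold change of OGTi against control (horizontal axis) for each member, grouped by role, with bars of 1 SE from the edgeR model. Filled points passed the test and open points did not. All 36 filled points lie left of 0, and the 2 points right of 0, Cdt1 and Pcna, are open.

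Origin licensing split between the loader CDC6 and the licensing inhibitor geminin on one side, which fell, and ORC1, ORC6 and CDT1 on the other, which did not pass. Cdc6 (chromosome 11, 98798507 to 98814766, build GRCm39 for this and all other gene positions), the ATPase that recruits the helicase to origins, measured 800.8, 750.1, 375.7 and 322.8 scaled counts in control libraries 1 to 4 and 73.7, 284.8, 81.7 and 39.1 in OGTi libraries 1 to 4. The groups did not overlap, and OGTi replicate 2 was the highest of its group. The mean of Cdc6 was 562 ± 248 scaled counts in control against 119.8 ± 112 after treatment (SD, n = 4), and the edgeR estimate was -2.50 ± 0.36 (log2, SE; adjusted p = 0.00152), or 5.66-fold lower. Gmnn (chromosome 13, 24935812 to 24946084), which encodes geminin, measured 721.9, 730.8, 474.2 and 322.8 in control and 382.0, 373.0, 229.5 and 159.7 in OGTi. The groups overlapped, yet each pair fell by a like amount, between -0.92 and -1.05 on the log2 scale. In Gmnn the difference of -0.99 ± 0.22 (log2, SE) parted means of 562 ± 199 and 286 ± 109 scaled counts (SD, n = 4; edgeR adjusted p = 0.0111). Without replicate 3 Gmnn did not pass (log2 fold change -0.97, adjusted p 0.0746), nor did it pass without the replicate block (adjusted p 0.0873).

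Orc1, the largest subunit of the origin recognition complex, had a log2 fold change of -1.19 with an edgeR adjusted p of 0.0505. Its scaled counts were 158.7, 213.7, 93.0 and 111.8 in control and 29.7, 87.1, 72.8 and 65.5 in OGTi, and it was the one member that did not pass although its groups did not overlap. Orc1 passed in 5 of 15 alternatives, among them DESeq2 (adjusted p 0.0276). Orc6, another subunit of that complex, had -0.17 (adjusted p 0.615). Cdt1, which loads the helicase and is held in check by geminin, had 0.33 (adjusted p 0.564). Its scaled counts were 356.8, 437.1, 229.3 and 80.9 in control and 314.4, 389.7, 236.1 and 278.0 in OGTi, so that control replicate 4 was far below the other libraries and pair 4 had a log2 difference of 1.77, against -0.18 to 0.04 in the other pairs. Without replicate 4 the log2 fold change of Cdt1 was -0.09 (adjusted p 0.865). The ratio of Gmnn to Cdt1 in TPM was 3.86, 3.28, 3.98 and 7.76 in control and 2.33, 1.77, 1.76 and 0.936 in OGTi. It went from 4.72 ± 2.05 to 1.70 ± 0.575 (SD, n = 4) and was lower in 4 of 4 pairs. The 7.76 of control replicate 4 goes with the low Cdt1 value there. A lower ratio was already implied by the pair values of Gmnn and Cdt1, and the ratio was formed after these were seen. Its two-sided exact sign-flip permutation p was 0.125, the smallest that 4 pairs allow, and cannot decide whether the ratio differed.

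The MCM helicase fell in all 6 of its subunits, which form the ring that unwinds DNA ahead of the fork, with a median log2 fold change of -2.15. No subunit overlapped between groups, and each was lower in all 4 pairs. Mcm5 (chromosome 8, 75836140 to 75856231) measured 2145.4, 2397.2, 878.5 and 958.7 scaled counts in control and 419.9, 625.4, 175.5 and 142.4 in OGTi. The lowest control library, replicate 3, was above the highest OGTi library, replicate 2. Mcm5 thus dropped from a mean of 1595 ± 788 to one of 341 ± 227 (SD, n = 4), which is -2.34 ± 0.23 on the log2 scale (SE; edgeR adjusted p = 0.000317), or 5.05-fold lower. Mcm3 (chromosome 1, 20870791 to 20890536) measured 3578.2, 4141.1, 1796.5 and 2047.4 in control and 536.6, 1344.5, 466.8 and 382.5 in OGTi, where replicate 2 stood above the other libraries. With group means of 2891 ± 1147 and 683 ± 446 (SD, n = 4), Mcm3 changed by -2.18 ± 0.25 on the log2 scale (SE; edgeR adjusted p = 0.000556).

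The other 4 subunits had log2 fold changes of -2.23 for Mcm4, -2.12 for Mcm6, -1.76 for Mcm2 and -1.52 for Mcm7. Of the 6, Mcm4 varied most between pairs, with -4.00 in pair 1 against -1.53 in pair 3, and was at -1.70 (adjusted p 0.00394) without replicate 1. The ring holds its subunits in equal numbers, and their transcript levels in TPM were within 1.91 to 2.47-fold of each other in the control libraries. In OGTi the highest subunit was 2.35 to 4.94-fold above the lowest, the widest spread being that of replicate 1, between Mcm7 at 8.89 TPM and Mcm4 at 1.8 TPM. Mcm5 was the lowest subunit in 3 of the 4 libraries of each group. The ranges overlapped and the spread was not tested.

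Helicase activation was mixed, with Cdc7, Mcm10, Gins2 and Gins1 lower and Cdc45, Gins3 and Gins4 not passing. Gins2 (chromosome 8, 121305372 to 121316043), one of the 4 subunits of the GINS complex, measured 929.2, 918.1, 614.2 and 500.0 scaled counts in control and 354.3, 427.7, 264.8 and 151.6 in OGTi. The groups did not overlap. The mean of Gins2 was 740.4 ± 217 scaled counts in control against 299.6 ± 119 after treatment (SD, n = 4), and the edgeR estimate was -1.35 ± 0.23 (log2, SE; adjusted p = 0.00329). Cdc7 (chromosome 5, 107112175 to 107134541), the kinase that phosphorylates loaded MCM rings, measured 445.8, 337.7, 177.7 and 282.3 in control and 77.8, 141.8, 109.2 and 51.7 in OGTi. The groups did not overlap either, and the pairs ranged from -0.70 to -2.51. In Cdc7 the difference of -1.72 ± 0.36 (log2, SE) parted means of 311 ± 112 and 95.1 ± 39 scaled counts (SD, n = 4; edgeR adjusted p = 0.00852).

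Mcm10, a scaffold for origin firing, had a log2 fold change of -1.70 and Gins1 one of -1.17. Of the members that did not pass, Cdc45, the partner of MCM and GINS in the active helicase, had -0.51 (adjusted p 0.169), Gins3 -0.52 (adjusted p 0.209) and Gins4 -0.27 (adjusted p 0.485). The GINS subunits, which assemble in equal numbers, thus had log2 fold changes from -1.35 for Gins2 to -0.27 for Gins4. Gins4 had the highest level of these subunits in both groups. It was at 74.9 TPM in control and 53.1 TPM in OGTi, against 44.6 and 14.6 TPM for Gins2. The difference between them was not tested. Mcm10 did not pass without replicate 2 (adjusted p 0.0575), Cdc7 without replicate 4 (adjusted p 0.053), and Gins1 with any one replicate left out (adjusted p 0.0569 to 0.145), without the replicate block (adjusted p 0.0775) or under upper-quartile scaling (adjusted p 0.0553).

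Among primase and polymerase genes, the catalytic or accessory subunits Pole2, Pole, Pola1, Pold1 and Prim1 fell, while Prim2 and Pola2 did not pass. Pole2 (chromosome 12, 69248544 to 69274969), the accessory subunit of the leading strand polymerase epsilon, measured 225.6, 155.7, 84.7 and 116.6 scaled counts in control and 42.0, 29.0, 17.7 and 24.1 in OGTi. The groups did not overlap, and the 4 pairs lay close together, from -2.23 to -2.41. Pole2 thus dropped from a mean of 146 ± 60.7 to one of 28.2 ± 10.3 (SD, n = 4), which is -2.34 ± 0.30 on the log2 scale (SE; edgeR adjusted p = 0.000931), or 5.08-fold lower. Pold1 (chromosome 7, 44182168 to 44198349), the catalytic subunit of polymerase delta, measured 926.4, 1218.0, 680.5 and 892.2 in control and 301.1, 508.1, 310.1 and 210.2 in OGTi, again without overlap. With group means of 929 ± 221 and 332 ± 126 (SD, n = 4), Pold1 changed by -1.52 ± 0.24 on the log2 scale (SE; edgeR adjusted p = 0.00264).

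Pole, the catalytic subunit of polymerase epsilon, had a log2 fold change of -1.87. Within the complex of polymerase alpha and primase, which lays down the primers, the subunits with the active sites fell, with -1.71 for Pola1 and -1.36 for Prim1. Their accessory partners were nearer to 0 and did not pass, with -0.30 for Pola2 (adjusted p 0.364) and -0.50 for Prim2 (adjusted p 0.149), a difference that was not tested. Pola1 did not pass without replicate 4 (adjusted p 0.0764), nor did Prim1 without the replicate block (adjusted p 0.131).

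Of the clamp, loader and lagging strand genes 6 of 8 fell. The loader subunits Rfc3, Rfc4 and Rfc5, the single-strand binding subunit Rpa2, the flap nuclease Fen1 and the ligase Lig1 fell, whereas the clamp itself, Pcna, and the loader subunit Rfc2 did not pass. Pcna measured 3400.3, 3257.3, 2225.6 and 2072.4 scaled counts in control and 5057.1, 3064.3, 2585.5 and 2546.5 in OGTi, so that pairs 1, 3 and 4 were above 0 and pair 2 was just below. Group means of 2739 ± 686 and 3313 ± 1186 (SD, n = 4) gave a difference of 0.25 ± 0.20 (log2, SE; edgeR adjusted p = 0.445). At 129 TPM in control and 123 TPM in OGTi, Pcna was the member with the highest level in both groups. The sign of its difference was not stable, since limma on log2(TPM + 1) gave -0.08 (adjusted p 0.692).

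Lig1 (chromosome 7, 13011239 to 13045350), which seals the fragments of the lagging strand, measured 667.8, 868.8, 401.5 and 347.8 scaled counts in control and 146.45, 388.62, 103.73 and 76.96 in OGTi. The groups overlapped only through OGTi replicate 2, which was above control replicate 4, while all 4 pairs were lower. The mean of Lig1 was 571 ± 243 scaled counts in control against 179 ± 143 after treatment (SD, n = 4), and the edgeR estimate was -1.86 ± 0.26 (log2, SE; adjusted p = 0.00149). Rfc5 (chromosome 5, 117515030 to 117527162) measured 1072.3, 1113.3, 606.8 and 282.3 in control and 368.7, 403.1, 232.8 and 97.6 in OGTi. Control replicate 4 was below OGTi replicates 1 and 2, but the 4 pairs agreed, from -1.38 to -1.54. In Rfc5 the difference of -1.48 ± 0.22 (log2, SE) parted means of 769 ± 397 and 276 ± 139.6 scaled counts (SD, n = 4; edgeR adjusted p = 0.00173), which was 0.065 without the replicate block.

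The remaining loader subunits had log2 fold changes of -1.31 for Rfc3, -0.97 for Rfc4 and -0.64 for Rfc2, which did not pass (adjusted p 0.0729). Rfc2 passed in 6 of 15 alternatives, namely without replicate 1 (adjusted p 0.0403), with DESeq2 (0.0442), library totals (0.0282) or the length trend removed (0.023), and with limma on log2(TPM + 1) or log2(TPM + 0.1) (0.0138 and 0.0126). Rpa2 had -1.12 and Fen1 -0.90. Rfc3 did not pass without replicate 3 or without replicate 4 (adjusted p 0.07 and 0.0565), Rfc4 without replicate 2, 3 or 4 (0.0562, 0.0983 and 0.131) and Fen1 without replicate 2 or 4 (0.0872 and 0.07). Without the replicate block these 3 did not pass either (adjusted p 0.124, 0.215 and 0.0937), nor did Rfc4 under upper-quartile scaling (adjusted p 0.0516).

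**Figure D3:**
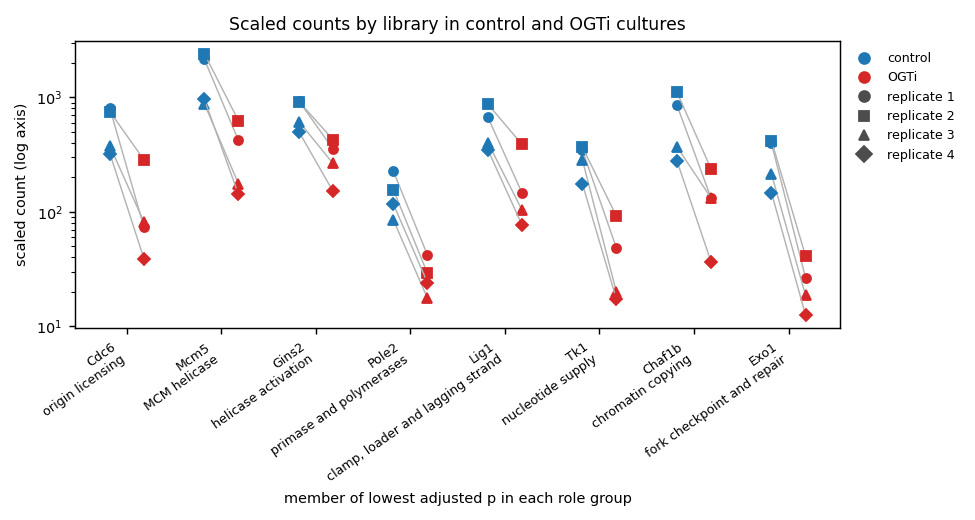
Scaled counts on a log axis for the member of lowest adjusted p in each role group, in control (blue) and OGTi (red) libraries. Marker shapes give the replicate and lines join pairs. Each line descends, and Exo1 drops furthest on this scale, from between 146.4 and 416.8 to between 12.6 and 41.3.

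All 5 nucleotide supply genes fell, with a median log2 fold change of -1.95 and a median control level of 25.4 TPM, against 17.7 TPM over all members. Tk1 (chromosome 11, 117702770 to 117717042), the cytosolic thymidine kinase of the salvage route, measured 344.9, 365.8, 282.7 and 175.4 scaled counts in control and 48.1, 91.6, 19.9 and 17.2 in OGTi. The groups did not overlap, and OGTi replicates 3 and 4 were the lowest. Tk1 thus dropped from a mean of 292 ± 85.5 to one of 44.2 ± 34.5 (SD, n = 4), which is -2.95 ± 0.35 on the log2 scale (SE; edgeR adjusted p = 0.000624), or 7.74-fold lower. Rrm2 (chromosome 12, 24757811 to 24764145), the S phase radical subunit of ribonucleotide reductase, measured 4877.9, 4732.0, 2160.2 and 1735.2 in control and 612.4, 1476.3, 606.9 and 299.8 in OGTi, also without overlap. With group means of 3376 ± 1659.8 and 749 ± 506 (SD, n = 4), Rrm2 changed by -2.26 ± 0.27 on the log2 scale (SE; edgeR adjusted p = 0.000651).

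Rrm1, the large subunit of the same enzyme, had a log2 fold change of -1.95, and the ratio of Rrm2 to Rrm1 in TPM was 2.09, 1.82, 1.10 and 1.01 in control and 1.66, 1.88, 1.14 and 0.509 in OGTi, so that the groups overlapped. Dut, which removes dUTP, had -1.91 and Tyms, which makes thymidylate, had -1.07. Rrm2b, the radical subunit used outside S phase and not a member, did not pass (log2 fold change 0.14 ± 0.27, adjusted p 0.768). Its level relative to Rrm2 in TPM was 0.0639, 0.0517, 0.154 and 0.244 in control and 0.368, 0.22, 0.812 and 1.83 in OGTi, higher in each of the 4 pairs, and in OGTi replicate 4 Rrm2b exceeded Rrm2. Tyms did not pass without replicate 3 (adjusted p 0.0585). The pseudogene Tyms-ps held 1 count over all libraries.

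Of the chromatin copying genes, the maintenance methylation factors Uhrf1 and Dnmt1, the histone chaperone subunits Chaf1b and Chaf1a and the remodeller Hells fell, and Slbp did not pass. Uhrf1 (chromosome 17, 56610275 to 56630489), which brings DNMT1 to hemimethylated DNA, measured 1463.9, 1648.9, 986.2 and 1009.7 scaled counts in control and 108.6, 514.8, 172.1 and 91.9 in OGTi. The groups did not overlap, and OGTi replicate 2 was the highest of its group. The mean of Uhrf1 was 1277 ± 331 scaled counts in control against 222 ± 198 after treatment (SD, n = 4), and the edgeR estimate was -2.84 ± 0.36 (log2, SE; adjusted p = 0.000846), or 7.17-fold lower. Chaf1b (chromosome 16, 93680768 to 93703003), a subunit of the chaperone CAF-1 that deposits histones behind the fork, measured 852.1, 1105.4, 369.2 and 278.4 in control and 132.1, 237.9, 132.4 and 36.8 in OGTi, without overlap. In Chaf1b the difference of -2.31 ± 0.29 (log2, SE) parted means of 651 ± 394 and 135 ± 82.2 scaled counts (SD, n = 4; edgeR adjusted p = 0.000846).

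Dnmt1, the maintenance methyltransferase, had a log2 fold change of -2.58, Hells one of -1.59 and Chaf1a one of -1.47. Chaf1a was uneven within the control group, where replicate 2 held 889.9 scaled counts and replicate 4 held 82.9. Slbp, which binds the stem-loop of histone mRNAs, had a log2 fold change of -0.08 (adjusted p 0.855), with 4043.2, 3429.6, 2873.9 and 3002.2 scaled counts in control and 3319.2, 2686.8, 4033.2 and 2705.1 in OGTi. Slbp had a control level of 99.7 TPM, and with Pcna, Rfc2 and Gins4 (129, 75.1 and 74.9 TPM) it was among the 4 most abundant members that did not pass. Chaf1a did not pass without replicate 2 or 3 (adjusted p 0.057 and 0.0621) or without the replicate block (adjusted p 0.101), and Hells did not pass without replicate 2 (adjusted p 0.0587).

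The checkpoint and repair group held the largest drop of all members, that of Exo1 (chromosome 1, 175708143 to 175741055), a nuclease of mismatch repair and end resection. It measured 396.3, 416.8, 213.6 and 146.4 scaled counts in control and 26.6, 41.3, 18.8 and 12.6 in OGTi. The highest OGTi library was far below the lowest control library, and the pairs lay between -3.32 and -3.87. Exo1 thus dropped from a mean of 293 ± 134 to one of 24.8 ± 12.4 (SD, n = 4), which is -3.56 ± 0.29 on the log2 scale (SE; edgeR adjusted p = 0.000201), or 11.8-fold lower. On the log2(TPM + 1) scale of limma, which understates low genes, Exo1 was at -1.97 and ranked behind several members, among them Uhrf1 (-2.60), Tk1 (-2.52), Rrm2 (-2.48) and Mcm3 (-2.36), while in the other alternatives it had the largest drop. Clspn (chromosome 4, 126450728 to 126489576), the adaptor that passes the stalled fork signal to the kinase CHK1, measured 143.1, 216.3, 85.6 and 44.3 in control and 67.6, 60.3, 33.1 and 3.4 in OGTi. Control replicate 4 was below OGTi replicates 1 and 2, so that the groups overlapped, and pair 4 had the largest difference. With group means of 122 ± 74.6 and 41.1 ± 29.2 (SD, n = 4), Clspn changed by -1.78 ± 0.41 on the log2 scale (SE; edgeR adjusted p = 0.0136), while without replicate 2 it did not pass (adjusted p 0.0568), nor without the replicate block (adjusted p 0.153) or with the length trend removed (adjusted p 0.0532).

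Brca1, which acts in recombination at broken forks, fell (log2 fold change -1.70), and missed the threshold without replicate 1 or 4 (adjusted p 0.0696 and 0.0784) or without the block (adjusted p 0.102). Its partner in recombination Brca2 had -1.11 (adjusted p 0.0561), the mismatch recognition subunit Msh6 -0.98 (adjusted p 0.107) and the uracil glycosylase Ung -0.93 (adjusted p 0.107). Brca2 was the member with the lowest level, at 0.338 TPM in control, and passed in 5 of 15 alternatives, among them DESeq2 (adjusted p 0.0453). Ung measured 435.7, 395.7, 239.4 and 71.3 scaled counts in control and 98.3, 178.7, 176.6 and 74.7 in OGTi, so that 3 pairs were lower and pair 4 was not.

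**Figure D4:**
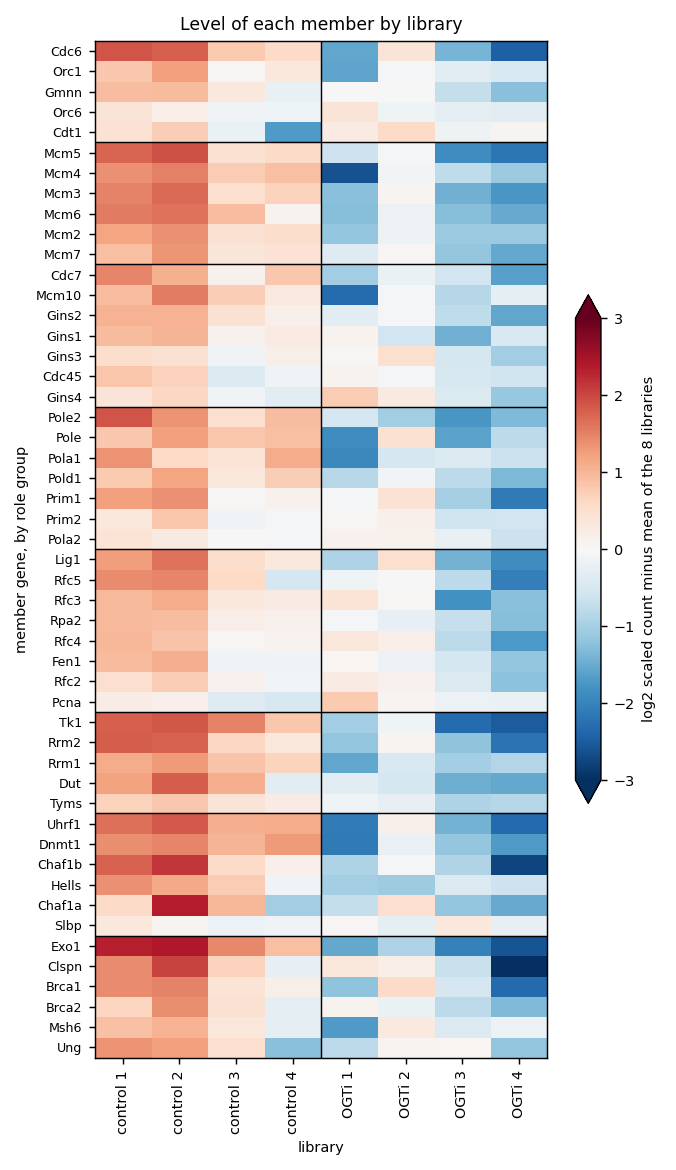
Level of each member (rows, by role group) in each library (columns), as log2 scaled counts minus the mean of the 8 libraries, red above and blue below it, with colours saturated at both ends of the scale. Control replicates 1 and 2 are the reddest columns, and the rows of Slbp, Orc6, Pcna and Gins4 show little contrast between the groups, with log2 fold changes of -0.08, -0.17, 0.25 and -0.27.

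The control level of the 14 members that did not pass had a median of 12.4 TPM (0.338 to 129), against 18.7 TPM (1.02 to 84.0) for the 36 that fell, and their transcripts were shorter, with a median length of 2035 bases against 3187. Across the 50 members, which are not independent and share their libraries, the Spearman correlation of length with log2 fold change was -0.42. With the trend of fold change on length over all genes removed it was -0.31, and without replicate 1 it was also -0.31. The part of transcript length in the split was not tested further.

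Among the members, 5 had a neighbouring protein-coding gene on the opposite strand that starts within 1000 bases of their own start. Neighbours of other gene types were not searched for. Mcm4 starts 434 bases from Prkdc, the catalytic subunit of the DNA-dependent protein kinase, and both fell (log2 fold change of Prkdc -1.55, edgeR adjusted p 0.0263). Gins1 starts 627 bases from Abhd12, which rose while Gins1 fell (1.47, adjusted p 0.0321). The neighbours Pxmp2 of Pole (-0.38), Prpf38a of Orc1 (-0.28) and Nbr1 of Brca1 (0.04) did not pass, with adjusted p of 0.466, 0.371 and 0.959. Counting used strand, so that reads of these pairs were kept apart.

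Other genes of the same processes were followed in lists that hold no member. Of 39 other replication fork and origin genes 17 fell and 1 rose, with a median log2 fold change of -0.79. Pclaf, which binds PCNA, had -3.04, the fork protection factor Timeless -2.70 and Rpa1, the large subunit partnered by the member Rpa2, -1.63 (adjusted p 0.000266, 0.00103 and 0.00146), while the RNase H2 subunit Rnaseh2c had 0.77 (adjusted p 0.0442). Of 32 other nucleotide supply genes 7 fell and 1 rose, with a median of -0.32. Ctps, Dck and Mthfd1, which act in CTP synthesis, deoxycytidine salvage and folate metabolism, had -1.38, -1.87 and -1.39, and the mitochondrial thymidine kinase Tk2 had 1.01 (adjusted p 0.00164, 0.00328, 0.00462 and 0.0144). The cytosolic and the mitochondrial thymidine kinase were thus called in opposite directions.

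Of 26 repair genes not tied to S phase 8 fell and 0 rose, with a median of -0.42, among them Parp1 (-1.51), Xrcc6 (-1.02) and Pms2 (-1.07), with adjusted p of 0.00903, 0.0109 and 0.0146. Of 20 mitosis genes 18 fell and 0 rose, with a median of -2.09, and those of lowest adjusted p were Ccnb1 (-3.46), Ube2c (-3.07) and Plk1 (-3.20), each at 0.000201. Cenpf (0.03) and Tpx2 (-0.79) did not pass, with adjusted p of 0.957 and 0.161. Of 13 E2F and pocket protein genes 4 fell and 0 rose, with a median of -0.42. E2f8 had -3.65, the E2F partner Tfdp1 -1.35 and E2f7 -1.41 (adjusted p 0.001, 0.00281 and 0.015), whereas E2f1, an activator of replication genes, had 0.11 (adjusted p 0.784). No list was tested against another.

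**Figure D5:**
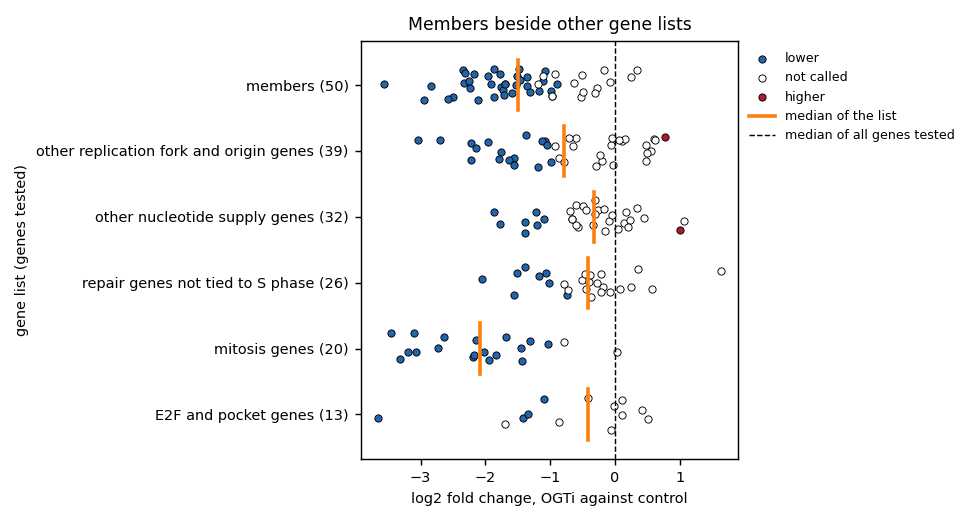
The log2 fold change of OGTi against control (horizontal axis) for each gene of the members and of 5 other lists, with vertical bars at the list medians and a dashed line at the median of all genes tested. Blue points were called lower, red points higher and open points were not called. The member median lies at -1.50, between the mitosis genes at -2.09 and the other replication fork and origin genes at -0.79.

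The labelled cell type was checked against its markers. The 13 stellate cell and myofibroblast markers summed to 7296 to 14225 TPM in control and 5951 to 13515 TPM in OGTi, and 3 of them, Lrat, Hgf and Pdgfrb, were called lower. Of 10 macrophage markers 4 stayed below 1 TPM in every library, and their sum was 50.2 to 192 TPM in control and 90.2 to 247 TPM in OGTi, with replicate 3 the highest in both groups, 0 called lower and 1 (Cd68) called higher. Of 10 endothelial markers 8 stayed below 1 TPM, and the sum of 668 to 830 TPM in control and 315 to 635 TPM in OGTi was almost all Eng, which did not pass (log2 fold change -0.34, adjusted p 0.198). Tek and Lyve1 were called lower, at 1.14 and 0.465 TPM in control. The 6 cholangiocyte markers summed to 307 to 654 TPM in control and 128 to 563 TPM in OGTi, mostly Spp1 and Krt19, with Krt19 called lower and Sox9 higher. Sums over 9 hepatocyte, 6 mesothelial and 6 lymphocyte markers stayed between 0 and 2.32 TPM in all libraries, and Hnf4a and Tat of the hepatocyte and Cd3g of the lymphocyte markers were at 0 throughout. Among these, Cyp2e1 of the hepatocyte list was called higher (log2 fold change 3.98, adjusted p 0.00591), at 0.05 TPM in control and 0.745 TPM in OGTi. The part of these cells in the members' levels was not tested.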

How the data were processed

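RNA was measured in 8 pMF-HSC cultures, 4 control and 4 OGTi, grouped and numbered by the sample titles. The authors used polyadenylated RNA for stranded libraries read from both ends, aligned the reads with Bowtie2 2.3.5.1 to the GRCm39 (mm39) genome and quantified each library with RSEM 1.3.1. Their methods name a GENCODE annotation, whereas the deposited transcript identifiers are RefSeq ones. The deposited tables give expected counts, estimated per gene and not always whole, and TPM, scaled by the authors for transcript length and depth. At most 1 member had a fractional count in any library. The deposited comparison table of the series, which holds the authors' DESeq2 1.36.0 fold changes and p-values, was not used.

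For the tests expected counts were rounded, and genes with a total under 10 were removed, leaving 19963. The quasi-likelihood test of edgeR 4.0.16 (R 4.3.3) was fitted to all of them with TMM scaling and the replicate number as a block, with Benjamini-Hochberg adjustment over all genes. The SE of a log2 fold change was derived from its F statistic. Scaled counts are counts over the TMM-adjusted library size, times the mean of that size. Pair values are log2 ratios of scaled counts with a pseudocount of 0.5. The study's methods pair the samples by replicate, and the check of that pairing gave correlations of deviations from the group means of 0.160, 0.224, 0.105 and 0.318 for same-numbered libraries, against -0.312 to 0.208 for others. The biological coefficient of variation was 0.342. On simulated data with 200 changed genes among 19578, the same test recovered 96% of 4-fold decreases. Of 2-fold increases it recovered 28% and of 1.5-fold increases 2%, while decreases of these sizes were not simulated.

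Alternatives were DESeq2 size factors, upper-quartile scaling, library totals, no low-count filter, filterByExpr, DESeq2 1.42.0, limma 3.58.1 on log2(TPM + 1) or log2(TPM + 0.1), no replicate block, removal of the trend on gene length, each replicate left out in turn, and an adjusted p of at most 0.01.

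The members, their role groups and the other lists were chosen with earlier results of these data known. Values in every library were given for the 2 members of lowest adjusted p in each role group, and the log2 fold change for all others. Of each other list, at most the 3 genes called lower and the 3 called higher of lowest adjusted p were named. The library values of Orc1, Cdt1, Pcna, Slbp and Ung, the ratios between genes, and the other non-members named (Rrm2b, Cenpf, Tpx2, E2f1, the genes neighbouring members, Tyms-ps and single cell type markers) were added after their values were seen. Of the other lists, Adss2 and Tf had no row under that name. Promoter windows came from RefSeq on build GRCm38.p6, and gene positions from GENCODE on GRCm39.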

Additional observations from a re-analysis of the deposited data

Results flagged for a closer look

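Each member was screened in each group for a library lying far from the other 3, by the gap to its nearest neighbour over the range of the group. Of 100 groups of values 4 stood out, where chance gives about 5. Of these, 3 were MCM subunits in OGTi replicate 2. Mcm2 held 1170.33 scaled counts there, against 581.7 to 606.5 in the other OGTi libraries. Mcm3 held 1344.54, against 382.5 to 536.6, and Mcm6 held 1113.37, against 442.2 to 520.8. All 3 subunits were still below every control library in OGTi replicate 2. Pole held 237.436 scaled counts in control replicate 2, against 178.9 to 188.8 in the other control libraries. The 3 MCM subunits share their library and are not independent of each other.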

How the results depend on the processing

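The direction of the result did not depend on the processing, but the number of calls did. The members called lower numbered 36, and 25 to 41 over the 15 alternatives, with 0 called higher in each. Without the replicate block 26 were called and without replicates 1 to 4 in turn 29 to 35, while DESeq2 called 39 and limma on either TPM scale 41. Of the 36, 21 were called in every alternative. In 47 members the sign never changed, the exceptions being Cdt1, Pcna and Slbp, which were not called. Of 750 member values under alternatives, 681 stayed on their side of the threshold, 46 lost the call, 23 gained it and 0 reversed a call. The member median of -1.50 became -1.69 with library totals, -1.31 with limma on log2(TPM + 1) and -1.69 on log2(TPM + 0.1). The log2(TPM + 1) scale understates low genes, putting Clspn at -0.70 and Brca2 at -0.25. Library totals and upper-quartile scaling moved the median of all genes to -0.19 and 0.13, and relative to it the member median was -1.50 with both, in a range of -1.64 to -1.21 over all alternatives. Among all genes 3666 changed, against 1668 at an adjusted p of at most 0.01, 1905 to 3124 when a replicate was left out, with 1905 without replicate 3 and 1956 without replicate 4, and 2991 without the replicate block. More changed with DESeq2 (4833), limma (4651 and 4709), no low-count filter (4555), library totals (4167), the length trend removed (4059), upper-quartile scaling (3783) and filterByExpr (3704). Of the changed genes 44.3% were higher under TMM, 30.1% under library totals and 54.2% under upper-quartile scaling, and 25.7% and 26.2% with limma on the TPM scales. Apart from the stricter threshold, which can only lower the number of calls, the cause of these shifts was not tested. The fits without a replicate also held fewer libraries. Members at a low level, such as Brca2 at 0.338 TPM in control, have the least depth behind their values, and p-values for small differences rest on 4 pairs.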
